A study of Mus musculus with 2 samples.

Results

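DNA methylation at CpG-dense stretches of the testis genome was read in windows of 100 bp, and the windows described here are those with at least 5 CpGs on chromosomes 1 to 19 in which the Kaiso knockout library lay below the wildtype library. They numbered 2396 of 217535 CpG-dense autosomal windows in the deposited table, or 1.1%, and of 2537435 listed windows in all. The members were chosen by comparing the deposited RPKM (reads scaled by window length and library size) of both libraries, so their direction and size are a description and were not tested. The study sequenced DNA bound by the methyl-CpG binding domain of MBD2, which pulls down sheared fragments that carry methylated CpGs. The tested sample was testis DNA with the genotype label Kaiso KO on the C57BL/6 background, labelled as an offspring of the 3rd generation and as male sterile. The comparison sample was testis DNA of a C57BL/6 wildtype. Each group was 1 library, ages, allele design and pooling of animals were not given in the sources used here, and the description of the knockout sample also calls its testis WT. Whole testis holds germ cells and somatic cells together, so a change in the methylation of 1 cell type and a change in the share of that cell type cannot be told apart.

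Kaiso, the product of Zbtb33, is a zinc finger protein that binds methylated CpG pairs and an unmethylated sequence motif. CpGs of mammalian DNA are mostly methylated, and dense clusters of CpGs, the CpG islands, are mostly spared. Capture by an MBD domain favours fragments with several methylated CpGs, so a dense window gives a high signal when methylated and a low one when not. The knockout library held 98549116 reads and the wildtype library 87710791. The targeted gene Zbtb33, on chromosome X from 38189793 to 38197046, had 83 knockout and 303 wildtype counts in its 16 listed windows. Of these windows 15 were lower in the knockout library, and none was CpG-dense. Among listed autosomal windows with 1 to 4 CpGs 48.1% were lower in any case, and the share of such windows on chromosome X was not computed. These counts check the label only weakly, also because capture depends on methylation and does not measure RNA. The deposited table holds windows with an unadjusted p-value below 0.05, so a window absent from it is not shown to be unchanged, and ratios in it are pushed away from 1. With 1 library per genotype no difference has a replicate check, and all intervals are exact Clopper-Pearson 95% intervals that cover counting error only, since PCR copies are not independent molecules.

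Sequences are given for gene starts that held a whole lower window, and these few starts do not stand for all 2396 lower windows. Of all lower windows 74.1% had 5 CpGs. RefSeq promoter sequences of GRCm38.p6, from 250 bases before to 50 after a gene start, contained a lower window in 16 promoters of 15 genes, and 7 of these genes belong to 1 interferon cluster on chromosome 4. They are printed 5′ to 3′ on the strand of the gene, and capitals mark each CpG. The first 3 are cluster genes, at chr4:88779600-88779899, chr4:88760524-88760823 and chr4:88773584-88773883, all on the plus strand. The other 4 are from elsewhere, at chr7:7278240-7278539 (minus strand), chr11:97050570-97050869, chr19:5050565-5050864 and chr5:123253538-123253837 (plus strand).
Gm13272: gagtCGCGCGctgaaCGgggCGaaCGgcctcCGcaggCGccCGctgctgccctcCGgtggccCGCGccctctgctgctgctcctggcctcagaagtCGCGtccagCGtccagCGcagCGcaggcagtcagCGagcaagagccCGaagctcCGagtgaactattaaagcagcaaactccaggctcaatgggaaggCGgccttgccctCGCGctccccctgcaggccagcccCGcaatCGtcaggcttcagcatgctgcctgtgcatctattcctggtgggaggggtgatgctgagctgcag
Gm13283: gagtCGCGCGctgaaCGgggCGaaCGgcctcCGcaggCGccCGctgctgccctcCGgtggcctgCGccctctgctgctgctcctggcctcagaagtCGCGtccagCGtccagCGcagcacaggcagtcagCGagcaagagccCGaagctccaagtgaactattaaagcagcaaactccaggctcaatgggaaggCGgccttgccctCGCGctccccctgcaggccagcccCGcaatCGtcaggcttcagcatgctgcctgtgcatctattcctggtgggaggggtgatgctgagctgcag
Gm13290: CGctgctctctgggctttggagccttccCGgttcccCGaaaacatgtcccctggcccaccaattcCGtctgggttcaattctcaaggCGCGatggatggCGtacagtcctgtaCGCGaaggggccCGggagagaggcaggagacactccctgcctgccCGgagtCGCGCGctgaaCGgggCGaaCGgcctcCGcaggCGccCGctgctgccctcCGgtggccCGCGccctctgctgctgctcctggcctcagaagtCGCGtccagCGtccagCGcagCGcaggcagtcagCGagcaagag
Vmn2r29: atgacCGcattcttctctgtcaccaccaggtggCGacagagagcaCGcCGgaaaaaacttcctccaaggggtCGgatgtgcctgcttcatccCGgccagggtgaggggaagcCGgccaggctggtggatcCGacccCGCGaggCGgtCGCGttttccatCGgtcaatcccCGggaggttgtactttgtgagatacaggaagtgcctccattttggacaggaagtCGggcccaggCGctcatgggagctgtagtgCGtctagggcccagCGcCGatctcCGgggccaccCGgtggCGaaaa
Osbpl7: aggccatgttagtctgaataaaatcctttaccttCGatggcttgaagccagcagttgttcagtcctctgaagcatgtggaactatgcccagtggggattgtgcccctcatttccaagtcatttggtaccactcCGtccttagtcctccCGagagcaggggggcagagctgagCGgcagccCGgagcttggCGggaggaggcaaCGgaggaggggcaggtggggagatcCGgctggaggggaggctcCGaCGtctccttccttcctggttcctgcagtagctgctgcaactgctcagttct
Rin1: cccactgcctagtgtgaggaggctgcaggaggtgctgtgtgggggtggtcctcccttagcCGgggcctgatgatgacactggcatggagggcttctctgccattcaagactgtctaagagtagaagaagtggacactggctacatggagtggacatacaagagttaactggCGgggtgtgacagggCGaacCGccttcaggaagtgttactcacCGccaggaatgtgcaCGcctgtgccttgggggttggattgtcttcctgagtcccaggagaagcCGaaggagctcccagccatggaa
Wdr66: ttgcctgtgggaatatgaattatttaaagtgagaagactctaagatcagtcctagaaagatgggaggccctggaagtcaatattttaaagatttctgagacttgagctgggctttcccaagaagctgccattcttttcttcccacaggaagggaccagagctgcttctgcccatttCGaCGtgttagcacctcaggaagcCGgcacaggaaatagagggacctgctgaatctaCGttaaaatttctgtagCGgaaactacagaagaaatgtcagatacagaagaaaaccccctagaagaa

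The promoter of Gm13272 carried 25 CpGs, that of Gm13283 22 and that of Gm13290 29, against 10 for Osbpl7, 7 for Rin1 and 5 for Wdr66. In a global alignment 99% of the 300 bases of Gm13283 matched those of Gm13272, and those of Gm13285 and Gm13287 matched Gm13272 in 100%. Fragments of these copies are near identical in sequence, and the part of shared reads in their values was not tested. The window of Osbpl7, a gene of an oxysterol binding protein family member, at 97050701, had 61 counts in the knockout and 92 in the wildtype library. The window of Rin1, a gene of a Ras effector, at 5050701, had 39 and 67 counts, and that of Wdr66 at 123253701 had 25 and 45, in the knockout and the wildtype library. All 3 windows were lower by a log2 ratio between -0.76 and -1.02. The unmethylated Kaiso motif TCCTGCNA, searched on both strands, was in 1 of the 16 promoters, that of Gm46116, and in 4.99% of all 31396 autosomal RefSeq promoters. The letters CGCG, which hold a CpG pair, were in 8 of the 16, that is the 7 cluster genes and Vmn2r29, and in 38.5% of all promoters. A match is a description of these letters and shows no binding.

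The lower windows were moderately captured in the wildtype library and weakly captured in the knockout. The count per window had a lowest value of 0, a median of 31 and a highest of 252 in the knockout library, against a lowest of 9, a median of 57 and a highest of 376 in the wildtype. Median RPKM was 3.15 in the knockout and 6.50 in the wildtype. Dense windows that were higher in the knockout library had medians of 122 knockout and 71 wildtype counts. These values were used to part both kinds of window and are given as a description. The relative methylation score the authors deposited, which corrects for CpG number and whose scale is not stated, was lower in the knockout for all 2396 windows, with medians of 0.0328 in the knockout and 0.108 in the wildtype. In dense windows with higher RPKM in the knockout the score had medians of 0.114 in the knockout and 0.112 in the wildtype, and 96743 of these 215139 windows (45.0%) also had a lower score in the knockout. A lower score was therefore far more frequent among dense windows than a lower RPKM.

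**Figure D1:**
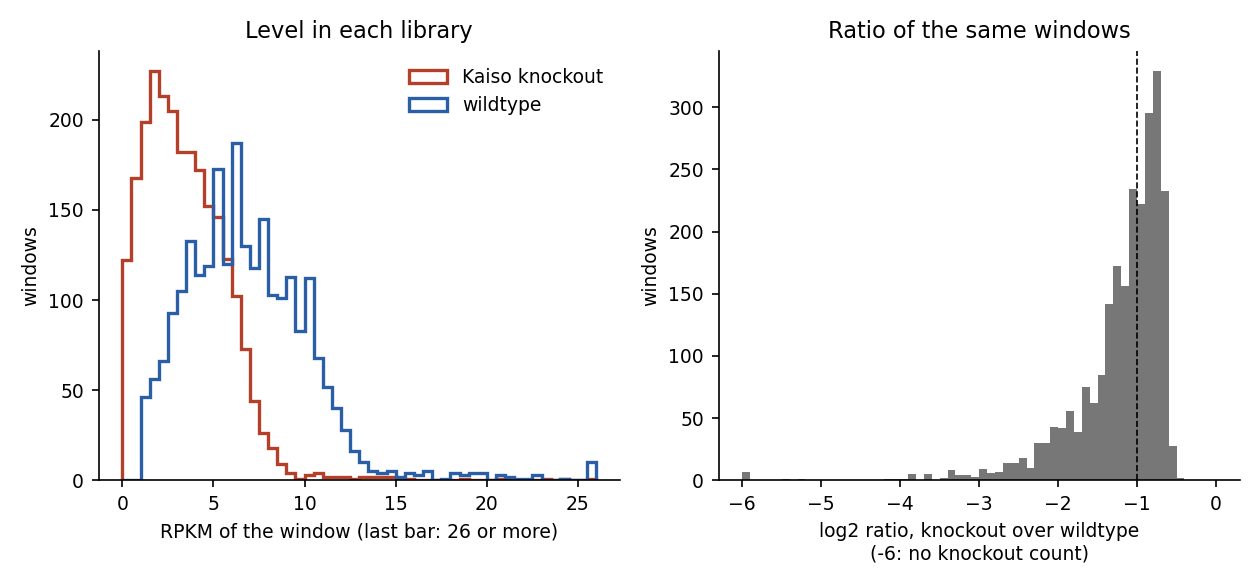
Left, number of windows by RPKM in the Kaiso knockout and wildtype libraries for the 2396 CpG-dense autosomal windows lower in the knockout. Right, number of the same windows by log2 ratio of knockout over wildtype, with a dashed line at a 2-fold decrease; medians are 3.15 RPKM in the knockout and 6.50 in the wildtype, and the median ratio is -1.03.

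The median log2 ratio of knockout over wildtype was -1.03, with an interquartile range from -1.39 to -0.80. At least 2-fold lower were 1287 windows, or 53.7%, and 224 were at least 4-fold lower. A 2-fold decrease was present in 38.3% of all listed autosomal windows, in 0.592% of the dense ones and in 87.2% of the 1078605 lower windows with 1 to 4 CpGs. Those lower windows had fewer reads, with medians of 10 knockout and 29 wildtype counts, and fewer reads need a larger ratio to enter the table. Between 39 and 78 wildtype counts, the interquartile range of the dense lower windows, the median ratio was -0.99 over 1231 dense lower windows and -1.13 over 341109 lower windows with 1 to 4 CpGs. The selection on p left a gap in the ratios that lay mostly below equality. The effect of this uneven gap on the share of lower windows was not tested. The member nearest to a ratio of 1, on chromosome 13 at 119495001 in Tmem267, had 252 knockout and 302 wildtype counts (log2 -0.43), and the nearest dense window outside the set, on chromosome 17 at 39848601, had 647 knockout and 554 wildtype counts (0.06).

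Lower windows sat at the sparse edge of the dense class. Of 106474 windows with 5 CpGs 1775 were lower, or 1.67% (interval 1.59 to 1.75%), and these made up 74.1% of the members. The share was 0.636% with 6 CpGs, 0.535% with 7, 0.478% with 8, 0.317% with 9 and 0.361% with 10. With 11 or more CpGs it was 0.642% (0.437 to 0.911%), 31 of 4825 windows. The interval of the densest class overlapped those of the classes from 6 to 10 CpGs. Below the dense class the share was 62.6% with 1 CpG, 51.1% with 2, 29.2% with 3 and 8.37% with 4. The size of the decrease hardly moved with CpG number, as median ratios lay between -0.97 and -1.10 in the 7 classes from 5 to 11 or more.

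The densest members were a run on chromosome 2 and windows of the interferon cluster. Over 4 adjacent windows from 46281801 to 46282200 on chromosome 2, with 16 to 20 CpGs each, counts were 31 to 41 in the knockout and 59 to 70 in the wildtype library. The ratio of this run was -0.97 (interval -1.60 to -0.36), and the nearest protein-coding gene, Zeb2, lay 1164359 bp away. A window with 16 CpGs in Poc1a, a centriole protein gene on chromosome 9, had 47 knockout and 76 wildtype counts. A window with 16 CpGs in Myof, a gene of membrane repair on chromosome 19, had 5 knockout and 19 wildtype counts (log2 -2.09, -3.87 to -0.62). Of the 31 lower windows with 11 or more CpGs, 12 lay in the interferon zeta array of chromosome 4.

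The lower windows were unevenly spread over the chromosomes. On chromosome 9 they made up 2.13% of dense windows (1.86 to 2.43%), on chromosome 4 1.94% (1.73 to 2.17%) and on chromosome 13 1.64% (1.40 to 1.91%). On the other 16 autosomes the share lay between 0.746% on chromosome 16 and 1.16% on chromosome 11. Of windows with 1 to 4 CpGs, 51.5% were lower on chromosome 9, the highest share of the 19 autosomes, 46.7% on 4 and 48.8% on 13, against 48.1% over all autosomes.

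**Figure D2:**
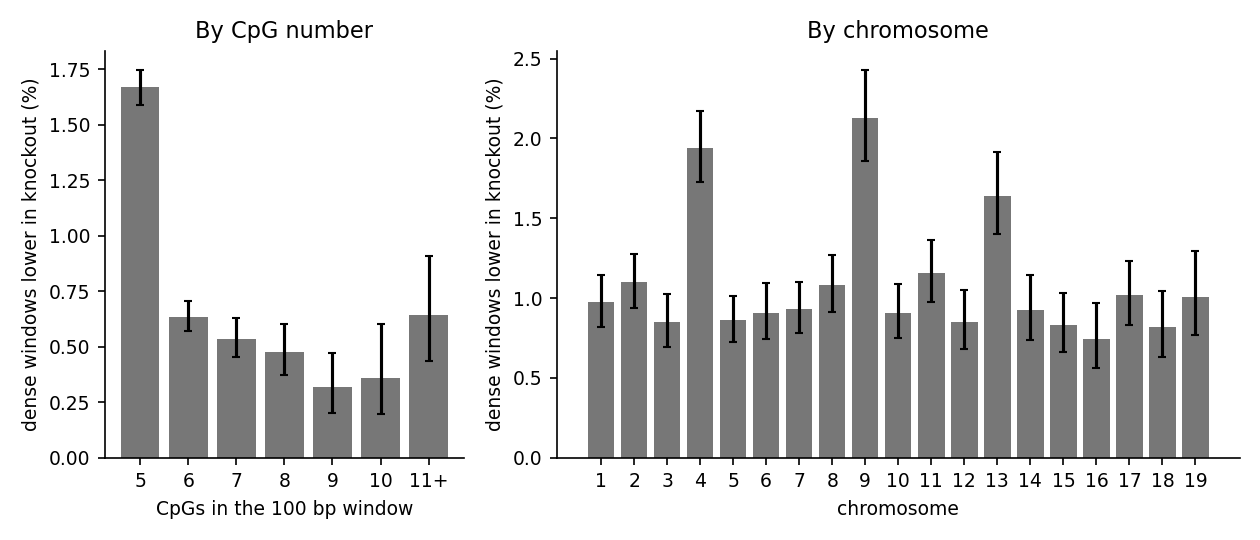
Share of CpG-dense autosomal windows that are lower in the knockout library, in percent, by CpG number (left) and by chromosome (right); bars are shares and lines are 95% Clopper-Pearson intervals. Windows with 5 CpGs stand at 1.67%, and chromosomes 9, 4 and 13 stand above the others at 2.13%, 1.94% and 1.64%.

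On a scale of 5 Mb the concentration was sharper. Of 495 segments with at least 100 dense windows, 6 had more than 5% lower ones, and the median segment had 0.901%. On chromosome 4, from 85 to 90 Mb 65 of 358 dense windows were lower (18.2%), and from 110 to 115 Mb 32 of 180 (17.8%). On chromosome 13 the segments from 65 to 70 Mb (9.29%) and from 115 to 120 Mb (8.21%) were above that limit, and on chromosome 9 those from 85 to 90 Mb (9.49%) and from 75 to 80 Mb (7.46%). Together these 6 segments held 9.77% of the lower windows and 0.976% of all dense windows. Among windows with 1 to 4 CpGs the lower share in these segments was 50.3 to 60.5%. When lower windows spaced by at most 50 kb were joined, 10 blocks had at least 6 of them. A block begins and ends at a lower window, so its share of lower dense windows is raised by the way it was drawn. These blocks held 159 windows, or 6.64% of the members. Without the blocks chromosome 9 had 1.95%, chromosome 4 1.41% and chromosome 13 1.18% lower dense windows, against 1.03% over all autosomes.

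The block with the most members covered the interferon zeta genes of chromosome 4. Interferon zeta, also called limitin, is a type I interferon of the mouse, and its genes form a tandem array within the type I interferon locus. Between 88754868 and 88808380 the annotation places 15 such genes, Ifnz itself and 14 with predicted names, and this list was drawn up after the values were seen. Within 1 kb of these genes 60 of 84 dense windows were lower (71.4%), against 1.1% of dense windows over all autosomes, and 14 of the 15 genes held one. The lower windows had medians of 19 knockout and 46.5 wildtype counts, or 1.93 and 5.30 RPKM, and a median ratio of -1.37. At least 2-fold lower were 54 of the 84. Over all 84 dense windows, lower and higher, the median ratio was -1.16. Of the windows with 1 to 4 CpGs of the same genes, 59 of 113 were lower (52.2%), against 48.1% over all autosomes. Their summed counts had a ratio of 0.02, which is not the same measure as a median over windows. The other 16 annotated type I interferon genes examined, Ifnb1, Ifne, Ifnab and 13 Ifna genes, had no dense listed window within 1 kb.

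**Figure D3:**
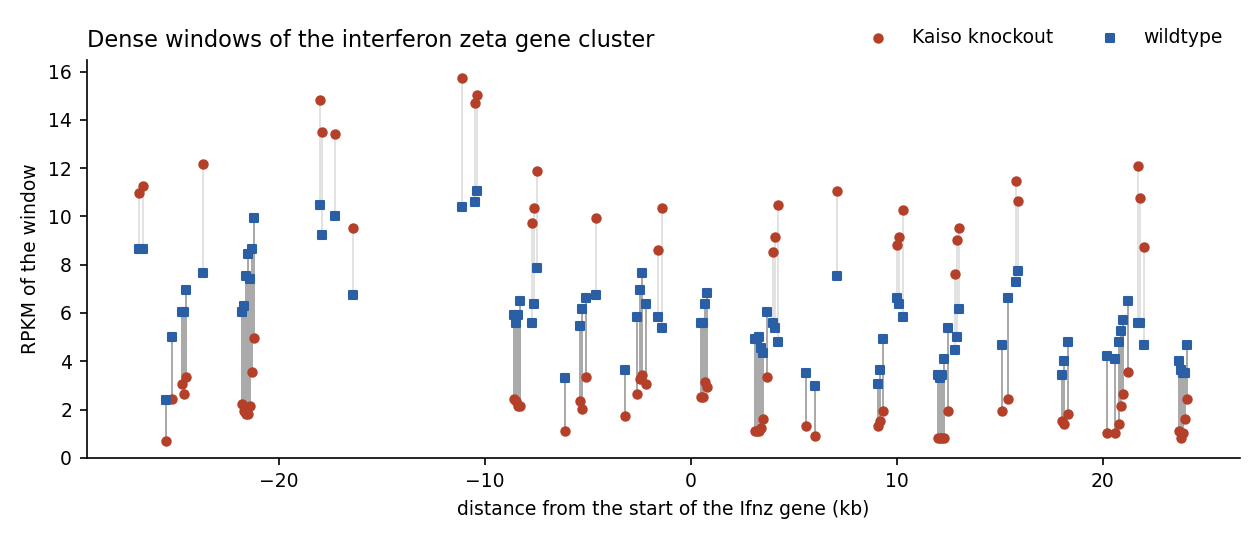
RPKM of each dense listed window of the interferon zeta cluster in the Kaiso knockout (circles) and wildtype (squares) libraries, by distance in kb from the start of Ifnz; a line joins both values of a window, dark where the knockout is lower. Lower windows have a median of 1.93 RPKM in the knockout and 5.30 in the wildtype, and they alternate along the array with dense windows that are higher in the knockout.

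Within the array the decrease recurred as a few adjacent windows in most copies. The 2 lower windows of Gm13277 did not touch each other, and neither did the 2 of Gm13279. Gm13283 had the longest run of lower windows, 7 windows from 88760301 to 88761000. Its counts along the run were 22, 19, 18, 18, 21, 35 and 49 in the knockout library, against 53, 55, 66, 74, 65, 76 and 87 in the wildtype. The ratio over the run was -1.56 (interval -2.27 to -0.88). Gm13276 had a run of 5 windows from 88785201 with 11 to 16 knockout and 38 to 44 wildtype counts (-1.94, -2.99 to -0.99). Gm13275 had 4 windows from 88794101 with 8 knockout counts each, against 29 to 36 in the wildtype (-2.13, -3.47 to -0.98). Gm13288 had 5 windows from 88805801 with 8 to 24 knockout and 31 to 41 wildtype counts (-1.47, -2.49 to -0.53). In Ifnz the 4 dense windows had 25, 25, 31 and 29 knockout counts, against 49, 49, 56 and 60 in the wildtype, and all 4 were lower. In Gm13283, Gm13285 and Gm13288 every dense window was lower too, with 7, 3 and 5 of them. Gm13271, at the proximal end of the array, held no lower window. Its 2 dense windows had 108 and 111 knockout and 76 and 76 wildtype counts. Higher dense windows lay beside the lower ones in 10 of the other 14 genes, and their knockout counts reached 94 to 120 per gene.

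Chromosome 13 held 2 of the 10 blocks, in a region where the only protein-coding genes in the blocks had predicted names. From 65865601 to 66267400, a stretch of 401.8 kb, 37 of 61 dense windows were lower, and so were 626 of 654 windows with 1 to 4 CpGs. Counts in the 37 windows were 20 to 116 in the knockout, median 49, and 44 to 247 in the wildtype, median 145. From 66320601 to 66387900 10 of 13 dense windows were lower, with medians of 103.5 knockout and 144 wildtype counts, as were 117 of 126 with 1 to 4 CpGs. Here CpG-poor windows moved the same way as dense ones, with a ratio of summed counts of -1.85 in the first stretch and -1.47 in the second. Over all autosomes 1.1% of dense windows and 48.1% of windows with 1 to 4 CpGs were lower. Both stretches begin and end at a lower window, which raises their share of lower dense windows. The window at 66320601 had 17 knockout and 99 wildtype counts (log2 ratio -2.71). The windows at 66214501 and 66364501, 1 in each stretch, both had 28 knockout and 148 wildtype counts (-2.57, -3.21 to -1.98). The part of reads shared between similar copies in this region was not tested.

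Filip1, which encodes a filamin A interacting protein, held the most lower windows of any gene with an assigned name. Of its 39 dense windows on chromosome 9 between 79805018 and 80012851 13 were lower, and 12 of these lay between 79899601 and 79903800. Their counts were 52 to 67 in the knockout and 87 to 99 in the wildtype, and the 13th at 79952001 had 40 and 77. The ratios of the 13 windows lay between -0.64 and -1.11. Over the whole gene, 206 of 399 listed windows were lower (51.6%), against 43.9% of all listed autosomal windows. The summed counts of the gene gave a ratio of 0.17. Outside annotated genes on the same chromosome, a run of 6 windows from 86120101 to 86120700 had 56 to 64 knockout and 92 to 111 wildtype counts (-0.92, -1.40 to -0.46).

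**Figure D4:**
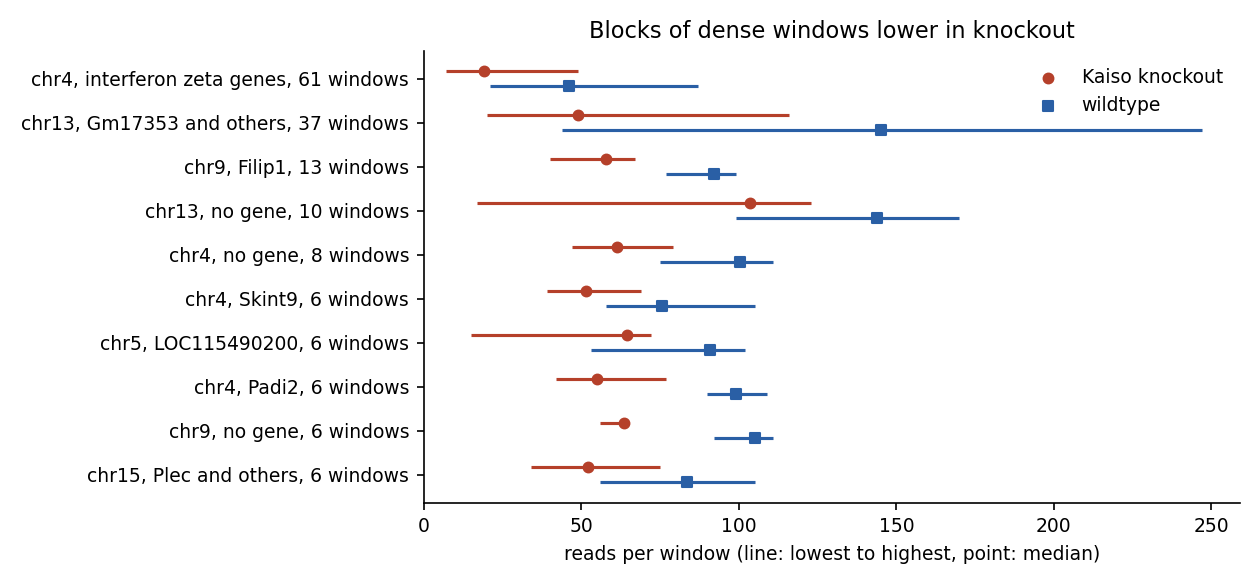
Reads per lower dense window in the 10 blocks with at least 6 of them, Kaiso knockout above wildtype for each block; points are medians over windows and lines run from the lowest to the highest window. The interferon zeta block has the lowest medians, 19 in the knockout and 46 in the wildtype, and the first chromosome 13 block the highest wildtype median, 145.

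Other blocks and runs of chromosome 4 lay in the distal part of the chromosome. The Skint genes, a mouse family related to Skint1, which guides the development of skin T cells, had dense windows in 8 of 11 genes, and 12 of these 26 windows, in 5 genes, were lower. The family was chosen after its values were seen. Over all protein-coding genes 1.15% of dense windows were lower, and 7.6% of genes with a dense window held a lower one. Lower were 3 of 12 dense windows in Skint6, 2 of 3 in Skint5, both in Skint9 and the only one in Skint4, and none of the 4 in Skint2, Skint7 and Skint8. The 3 in Skint6 had 52, 90 and 45 knockout and 74, 122 and 83 wildtype counts, and the 2 in Skint5 41 and 50 knockout and 71 and 73 wildtype counts. Skint11 held 4, which were all of its dense windows, with 72, 66, 59 and 47 knockout and 115, 96, 97 and 88 wildtype counts. The 8 dense windows of a stretch without protein-coding genes, from 113379401 to 113414900, were all lower, with 47 to 79 knockout and 75 to 111 wildtype counts. Around Skint9, from 112349301, all 6 dense windows were lower, with 39 to 69 knockout and 58 to 105 wildtype counts. The ranges of both stretches overlapped between the libraries. Both stretches are blocks that begin and end at a lower window, which raises the share of lower dense windows in them. Snrnp40, the gene of a protein of the spliceosomal U5 particle, had 4 adjacent lower windows from 130371301 with 62, 55, 60 and 59 knockout and 95, 105, 106 and 109 wildtype counts. The run had a ratio of -0.98 (-1.47 to -0.51), and all listed windows of Snrnp40 together had 0.23. A run of 4 windows from 141210001, 3540 bp from the ciliary gene Cplane2, had 43 to 54 knockout and 89 to 99 wildtype counts (-1.09, -1.62 to -0.57).

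Most members stood alone. The 2396 windows formed 2263 runs of touching windows, of which 2178 (96.2%) were single windows, and 85 runs held 218 windows. Runs of 4 or more windows numbered 12, and 9 of them lay on chromosome 4. Only 9.10% of the lower windows touched another dense listed window, against 37.5% of the dense windows higher in the knockout. Any listed window touched 59.5% of the lower ones and 94.4% of the higher ones. No lower dense window touched a higher dense one. This says little, because a fragment spans several windows, so touching windows share reads. The selection on p also left no dense window with a log2 ratio between -0.43 and 0.06.

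The decrease reached into the CpG-poorer windows beside a member and was smaller farther away. Of 5003 other listed windows within 500 bp of a lower dense window, 93.6% were lower, against 3.93% of the listed windows within 500 bp of any dense window. Since fragments are longer than a window, these neighbours hold reads of the members and are not independent of them. At 2 kb before and after a lower window, 45.7% and 45.0% of listed windows were lower, near the 43.9% of all listed autosomal windows. At the same distances from higher dense windows the shares were 25.1% and 25.2%, below that general share. Mean RPKM of the listed windows at 300 bp before a member was 2.42 in the knockout and 5.49 in the wildtype, and at 2 kb before it was 5.99 and 5.44.

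**Figure D5:**
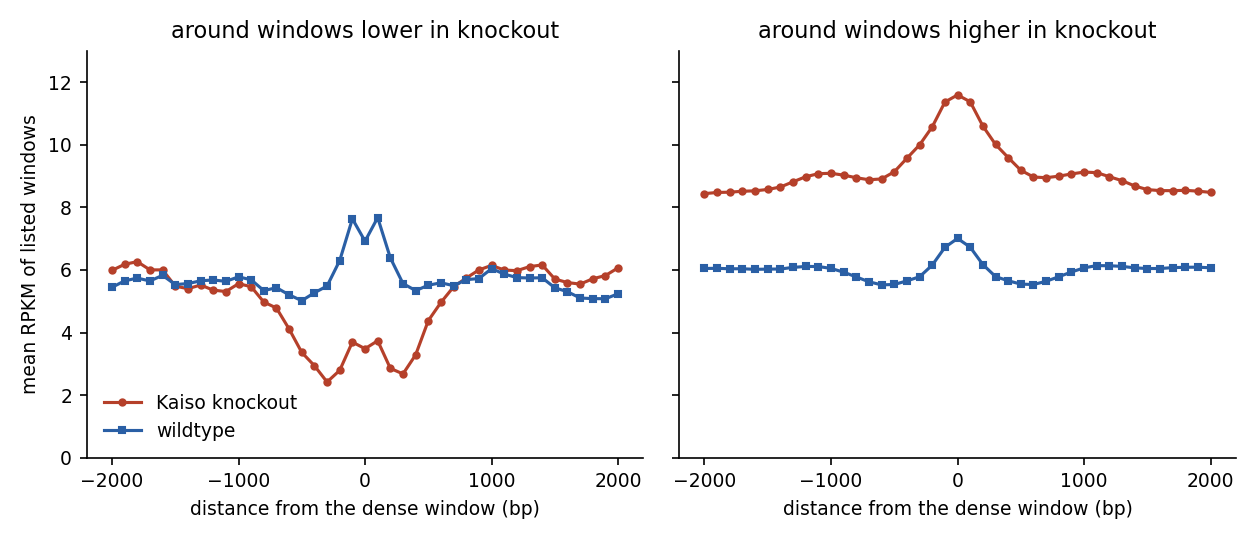
Mean RPKM of listed windows by distance in bp from a CpG-dense window, in the Kaiso knockout (circles) and wildtype (squares) libraries, around dense windows lower in the knockout (left) and higher in it (right); distance 0 is the dense window itself. On the left the knockout lies below the wildtype from 1500 bp before (5.48 against 5.53) to 700 bp after (5.46 against 5.50). The difference is widest at 100 bp before (3.70 against 7.63), and at 2 kb before the knockout lies above the wildtype (5.99 against 5.44).

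Protein-coding genes held 1278 of the 2396 windows, or 53.3% (51.3 to 55.4%), against 49.8% of the higher dense windows. Within 1 kb of a protein-coding gene end lay 7.1% of the lower and 6.14% of the higher windows, and 5.7% of the runs of lower windows. Annotated pseudogenes held 1.04% of the lower and 3.1% of the higher windows. The median distance to the nearest RefSeq start was 22.5 kb for lower and 27.4 kb for higher windows, leaving out chromosome 18, whose starts were not used here. Within 1 kb of a start lay 6.09% of 2333 lower windows and 4.39% of 207503 higher ones, and 4.59% of 2200 runs of lower windows lay there. Of 14915 protein-coding genes with a dense window in the gene or 1 kb around it, 1133 held a lower one, or 7.6%. A single lower window was present in 965 of them, 2 in 129 and 3 or more in 39. In 84 genes all dense windows were lower, but only 9 of these had at least 3 dense windows.

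Genes with several lower windows differed in how far the whole gene followed. Efl1, a GTPase gene of ribosome maturation on chromosome 7, had 5 lower among 22 dense windows. Its counts from 82771101 were 124, 145, 146, 91 and 86 in the knockout and 212, 307, 376, 197 and 129 in the wildtype, and the run of the first 3 had a ratio of -1.28 (-1.58 to -0.98). Over all listed windows of Efl1 the ratio was 0.11. Vars, the valyl-tRNA synthetase gene on chromosome 17, had 5 lower among 17 dense windows with its flanks of 1 kb. Their counts were 33, 37, 27, 24 and 2 in the knockout and 68, 63, 55, 44 and 20 in the wildtype. The first 4 of these windows lie inside the adjacent gene D17H6S56E-5 and in the flank of Vars, and they were 4 of the 5 dense windows of D17H6S56E-5. Over all listed windows the ratio was 0.37 in Vars and -0.67 in D17H6S56E-5.

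Other genes with 4 lower windows ranged from a small part to all of their dense windows. Gse1, a chromatin protein gene on chromosome 8, had 4 lower among 116 dense windows, with 66, 92, 36 and 55 knockout and 92, 120, 66 and 77 wildtype counts. Thsd4, a gene of an extracellular matrix protein on chromosome 9, had 4 among 56, with 22, 35, 59 and 20 knockout and 42, 75, 99 and 61 wildtype counts. Nek11, a kinase gene on chromosome 9, had 4 among 13, with 0, 52, 10 and 46 knockout and 20, 85, 23 and 82 wildtype counts. Of its 437 listed windows 315 were lower (72.1%), against 43.9% of all listed autosomal windows, with a ratio of -0.53 for the summed counts. Tsc22d2, a gene of a TSC22 domain protein on chromosome 3, had all 4 dense windows lower, with 20, 30, 39 and 36 knockout and 40, 51, 59 and 58 wildtype counts. Of listed windows 33.7% were lower in Gse1, 54.1% in Thsd4 and 83.3% in Tsc22d2. The ratios of their summed counts were 0.26, 0.04 and -0.71, in that order.

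Further genes held 3 lower windows each, and in Hmx1 and Eef1a1 these were all of the dense ones. Hmx1, a homeobox gene on chromosome 5, had 3 with 8, 15 and 16 knockout and 21, 32 and 40 wildtype counts (-1.42 over the run, -2.48 to -0.45). All 17 listed windows of Hmx1 were lower, against 43.9% of all listed autosomal windows. Eef1a1, the gene of a translation elongation factor on chromosome 9, had 3 with 66, 69 and 26 knockout and 99, 94 and 51 wildtype counts. In Fbxl16, an F-box protein gene on chromosome 17, 3 of 7 dense windows were lower, with 14, 14 and 15 knockout and 61, 73 and 56 wildtype counts, each at least 4-fold lower. Of listed windows 5 of 6 were lower in Eef1a1 and 24 of 43 in Fbxl16, with ratios of summed counts of -0.73 and -0.02. Hmx1, Eef1a1 and Fbxl16 were chosen after their values were seen.

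The most strongly captured members lay in 3 genes. The 5 with the highest wildtype RPKM lay in Efl1 (2 windows), Tmem267 (2) and Vmn2r29. Tmem267 on chromosome 13 had 228 knockout and 358 wildtype counts at 119492301 (-0.82, -1.06 to -0.58) and 252 and 302 at 119495001. Vmn2r29, a vomeronasal receptor gene on chromosome 7, had 3 adjacent windows at its start with 8 to 14 CpGs and 238, 203 and 155 knockout and 298, 277 and 199 wildtype counts. The ratio over these windows was -0.55 (-0.82 to -0.27).

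The farthest decreases rested on few reads. No knockout read was counted in 7 windows, which had 10 to 20 wildtype counts, in or near Ampd2, Eif2ak3, Lrfn1, Gab1, Spsb4, Nek11 and Marchf11. In Nek11 at 105272401 the 20 wildtype counts gave an interval ending at -2.47, and in Eif2ak3, the gene of a stress-activated kinase, 18 counts gave one ending at -2.30. The window in Me1, the malic enzyme gene on chromosome 9, had 1 knockout and 34 wildtype counts (-5.26, -10.60 to -2.68). A window on chromosome 11 at 56882801, 128671 bp from the glutamate receptor gene Gria1, had 1 and 39 (-5.45, -10.79 to -2.89), and one in the potassium channel gene Kcnq3 had 3 and 33 (-3.63, -5.98 to -1.95). Over all listed windows of the gene the ratio of summed counts was -0.18 in Me1, 0.34 in Eif2ak3 and 0.06 in Gab1. Lower were 79 of 128, 42 of 135 and 102 of 196 windows (61.7%, 31.1% and 52.0%), in that order. The share over all listed autosomal windows was 43.9%.

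Gene lists of the testis and of methylation were read against the 7.6% of genes with a lower dense window. Among germline genes that somatic cells methylate, 1 of 40 held one, Asz1, a gene of piRNA-guided silencing, with 45 knockout and 68 wildtype counts. Among spermatid genes it was 2 of 32, Crem, with 22 and 39 counts in a window of 11 CpGs, and Spata16. Among spermatogonial genes it was 3 of 19, Ret with 47 and 69 counts, Zbtb16 with 24 and 48, and Lin28a with 7 and 24, in the knockout and the wildtype library. None of 20 Sertoli cell genes, 15 Leydig cell genes and 8 reported Kaiso targets held a lower dense window. Of 21 genes of methylation readers, writers, erasers and the Kaiso family, 1 did, the glycosylase gene Mbd4, with 8 knockout and 42 wildtype counts in its only dense window (-2.56).

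Imprinted genes and gene families lay on both sides of that 7.6%, many of them on few genes. Among maternally methylated imprinted genes 2 of 28 did, H13 with 12 and 24 knockout and 39 and 45 wildtype counts in 2 windows, and Usp29 with 28 and 46. Among paternally methylated loci 1 of 5 did, Rasgrf1, with 28 knockout and 52 wildtype counts. None of 34 Hox genes and none of 56 keratin genes had a lower dense window, and olfactory receptors had 1 among 94. For clustered protocadherins 14 of 57 genes were counted, but they shared 1 lower window, with 6 knockout and 19 wildtype counts, and in Pcdha1 it was 1 of 187 dense windows. Among 309 Zfp and related zinc finger genes 15 had one (4.85%), among 107 potassium and calcium channel genes 13 (12.1%), and among 40 collagen genes 8 (20%). Counted by window, 13 of 1495 dense windows of the channel genes were lower (0.87%) and 9 of 492 of the collagen genes (1.83%), against 1.15% over all protein-coding genes, so the channel list lay above the background by gene and below it by window. Of 38 vomeronasal receptor genes 2 had one, of 12 mucin genes 3, of which Muc4 and Muc20 share 1 window, and of 29 histone genes 1, H3f3a.

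Genes of cytosolic ribosomal proteins held several lower windows. Of 42 with a dense window 11 had a lower one (26.2%), and 13 of their 79 dense windows were lower (16.5%), against 1.15% of the dense windows over all protein-coding genes. Counts were low in many of them. Rpl7a had 2 and 5 knockout and 10 and 16 wildtype counts in 2 adjacent windows, Rpl7 2 and 17, Rps18 2 and 11, Rps15 8 and 22, and Rpl36 6 and 21 in a window with 10 CpGs. Rpl8 had 28 and 23 knockout and 50 and 49 wildtype counts, Rpl37 38 and 69, Rps15a 44 and 69, and Rpl35 26 and 64. Ribosomal protein genes have many processed copies in the mouse genome, and the part of reads shared with them was not tested. The pattern that matched these genes to the list, by symbol, also took in Rpl7l1, a related gene, with 2 knockout and 10 wildtype counts.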

How the data were processed

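Per the labels' protocols, testis DNA was sheared and methylated fragments were captured with the MBD domain of MBD2 and sequenced. Bowtie2 2.2.6, edgeR and the mm10 build are named in the submitters' processing notes. Per the file headers, the deposited table gives for each 100 bp window the CpG count, the read count of each library, the RPKM and a relative methylation score, together with the authors' log2 fold change and p-value. Read extension, multiple alignments and PCR copies are not given in the sources used here. All 2537435 listed windows had a deposited p-value under 0.05, equal to the adjusted one. The authors' log2 fold change, coded as wildtype over knockout, was turned round, after which it differed from the RPKM ratio by 0.13 towards the knockout. Another 10 columns of values were not used.

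Samples were grouped by the genotype label. Library reads came from count over RPKM. Ratios are knockout over wildtype RPKM. A run's ratio and interval used its mean count per window, since a read is counted in several windows. Touching windows formed a run. Genes, of GRCm38.p6 (the assembly of mm10), were protein-coding RefSeq spans with 1 kb on each side. Promoter alignments scored 1 per match, with gap penalties. The interval routine was tested on simulated data. Named genes were the 12 with the most lower windows, predicted names last, the nearest genes of the 10 longest runs, the 10 runs with the lowest upper bound, the 5 windows with the highest wildtype RPKM and the 5 with the most CpGs, and up to 3 of each gene list. Other genes with values were chosen after those were seen. Members, lists and rules were chosen with earlier results of these data known. Alternatives were other CpG minimums, scalings, count minimums, gaps, flanks and folds. Python 3.11.15, numpy 2.4.6, pandas 2.3.3, scipy 1.17.1, matplotlib 3.10.9 and, for the alignments, Biopython 1.88 were used.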

Additional observations from a re-analysis of the deposited data

How the results depend on the processing

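The number of lower dense windows depended most on the CpG minimum, with 19409 at 4 or more CpGs, 621 at 6 and 285 at 7. Scaled by the autosomal counts of the table it was 4126. It was 2396 with the authors' deposited log2 fold change and with unscaled counts. No dense window had a ratio between -0.43 and 0.06, so the small shifts of these scalings towards the knockout could not change it. Without the 10 blocks, an alternative chosen after seeing the data, the number was 2237. The median ratio was -1.15 at 4 or more CpGs, -1.06 at 7, -1.30 with autosomal counts, -0.90 with the authors' deposited log2 fold change and -0.99 from summed counts. Runs numbered 19146 at 4 or more CpGs and 566 at 6. The share at least 2-fold lower was 84.6% with autosomal counts and 41.2% with the authors' deposited fold change, and at folds of 1.5 and 4 the shares were 99.4% and 9.35%. Near gene ends lay 3.80% at 500 bp, 11.4% at 2 kb and 5.70% of runs. Of neighbouring windows 99.9% were lower within 200 bp, 79.5% within 1 kb, 94.7% of those with 1 to 4 CpGs and 0% of the 54 with 5 or more, which the rule fixes because members are left out. The cause of the shifts between scalings was not tested. Of the 12 genes with the most lower windows, 10 were shared when the gene span alone was used. No paired analysis was possible because each genotype had 1 library. At least 20 summed counts were present in 2315 windows and at least 50 in 1911, and counting intervals are wide below these depths.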

Other observations

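Outside the autosomes, dense windows lower in the knockout library were also present. On chromosome X 89 of 8113 dense windows were lower (1.1%), with medians of 36 knockout and 63 wildtype counts. On chromosome Y 118 of 2006 were lower (5.88%), with medians of 99 knockout and 223 wildtype counts. The Y windows thus had a share above that of each autosome, whose highest was 2.13% on chromosome 9, and it was not tested.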
